A study of Mus musculus with 5 samples.

Results

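The expression of 10 genes that serve as surface or reporter markers of mouse haematopoietic stem cells (HSCs) was examined in bulk RNA sequencing of sorted bone marrow HSCs. The genes were chosen by name, as established markers, from the 55335 genes of the table. They are Kit, Ly6a, Slamf1 and Cd48, whose products define the sort gate, the further surface markers Procr, Cd34, Esam, Cd27 and Adgrg1, and the reporter gene Fgd5. The study asks how HSCs fare in mice in which the macrophages of embryonic origin are removed. Cells without lineage antigens that carried Kit and Sca-1 (KSL), were positive for CD150 and negative for CD48 were sorted from the bone marrow of mice aged 3 weeks. The libraries comprised 3 wild-type and 2 RankCre-ki samples, labelled as C57BL/6J. By the study's methods the RankCre-ki mice were Rank cre/+;Csf1r fl/-: they carry Cre in the Rank (Tnfrsf11a) gene, 1 floxed and 1 null allele of the macrophage growth factor receptor gene Csf1r. The genotype of the controls beyond the label wild-type was not given in the sources used here. Cre in this line acts in the embryonic macrophage lineage and not in adult stem cells, so the sorted cells are not its intended target, although they carry the null allele as all cells of these mice do. The null allele was kept on C3H/HeJ before crossing. Whether each library came from its own mouse is not stated, and the p values measure only the spread between these libraries.

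HSC isolation rests on combinations of surface proteins, because no single protein marks these cells. Kit is the receptor tyrosine kinase for stem cell factor, and Sca-1, the product of Ly6a, is a small protein held in the membrane by a lipid anchor. Within KSL cells, CD150 (Slamf1) and CD48 (Cd48), both members of the signalling lymphocytic activation molecule (SLAM) family, separate HSCs, which carry CD150 and lack CD48, from multipotent and restricted progenitors, many of which carry CD48. Levels are given below in TPM, the unit in which each gene has a length-corrected share of the transcripts of its library, and they measure RNA, not the protein on which cells were sorted.

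The number in each library name, which the study's methods give as a range of sorted cells, was between 80 and 90. Between 9021 and 11084 genes reached 1 TPM in each wild-type library, against 12801 and 16386 in RankCre-ki replicates 1 and 2, and mitochondrially encoded genes took up at least 14.7% of the TPM of every wild-type library and 10.7% and 8.21% in the others. The library names fall into 2 series, with wild-type replicate 1 and RankCre-ki replicate 2 in series 1 and the other libraries in series 2. The study used 2 tagmentation kits on sets of the same composition, and that each series is 1 set is an inference. RankCre-ki replicate 2 is labelled female but had the Y-linked gene Eif2s3y at 62.5 TPM and Xist at 0.0229 TPM. Its series 1 partner, wild-type replicate 1, had these genes at 41.6 and 0.0273 TPM. Within series 2, Eif2s3y reached at most 0.288 TPM and Xist ranged from 5.16 to 22.5 TPM. Sex-linked expression thus divided the libraries in the same way as the name series, and its part cannot be separated from that of the series. Csf1r was at 2.39, 0 and 0.234 TPM in wild-type against 17.5 and 6.46 TPM in RankCre-ki HSCs. The part of these library differences in the results below was not tested.

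Promoter sequences are shown for 3 markers: Slamf1 and Cd48, which the gate reads in opposite senses although they lie next to each other on chromosome 1, and Procr, which is outside the gate and differed between the groups at an unadjusted p under 0.05. Each window runs from 250 bases before to 50 bases after a RefSeq transcription start (GRCm38.p6), is written 5′ to 3′ on the strand of the gene, and has the matches to the searched motifs in capitals.
Slamf1 promoter, chr1:171766882-171767181, plus strand: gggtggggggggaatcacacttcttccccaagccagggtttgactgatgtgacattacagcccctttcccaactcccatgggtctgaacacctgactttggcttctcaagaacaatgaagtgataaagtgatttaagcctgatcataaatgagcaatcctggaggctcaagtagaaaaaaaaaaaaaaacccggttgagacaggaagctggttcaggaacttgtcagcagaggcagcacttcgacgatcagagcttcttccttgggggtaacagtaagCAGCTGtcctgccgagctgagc
Cd48 promoter, chr1:171681742-171682041, plus strand: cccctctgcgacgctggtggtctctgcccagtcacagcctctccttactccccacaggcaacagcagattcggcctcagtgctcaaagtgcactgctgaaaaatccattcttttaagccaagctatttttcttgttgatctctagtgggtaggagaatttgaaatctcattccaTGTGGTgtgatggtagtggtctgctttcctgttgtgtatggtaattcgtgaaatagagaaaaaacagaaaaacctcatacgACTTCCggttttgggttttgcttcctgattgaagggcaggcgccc
Procr promoter, chr2:155750967-155751266, plus strand: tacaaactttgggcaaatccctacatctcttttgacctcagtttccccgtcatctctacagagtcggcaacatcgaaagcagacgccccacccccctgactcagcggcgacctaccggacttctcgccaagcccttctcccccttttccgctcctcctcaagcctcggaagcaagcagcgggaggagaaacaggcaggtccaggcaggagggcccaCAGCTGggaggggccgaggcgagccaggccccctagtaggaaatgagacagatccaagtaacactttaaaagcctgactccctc
The motifs were that of GATA factors (AGATAA), that of ETS factors (GGAAGT), that of RUNX factors (TGTGGT), an E-box (CAGCTG) and the TATA box (TATAAA), searched on both strands without allowing mismatches. The capitals mark CAGCTG at base 279 of the Slamf1 window, TGTGGT at base 175 and the reverse complement of GGAAGT at base 256 of the Cd48 window, and CAGCTG at base 217 of the Procr window. Among all 32851 RefSeq windows of this length, CAGCTG was present in 16.3%, TGTGGT in 16.8% and GGAAGT in 23.8%, so each match is a common one. The Procr window had a GC content of 58.3% with 13 CpG sites, against 49.0% with 4 for Slamf1 and 47.3% with 7 for Cd48. The median over all windows was 52.7% with 7 CpG sites. RefSeq windows were found for 8 of the 10 markers (10 windows), and those of Kit, Cd34, Cd27, Adgrg1 and Fgd5 held none of the 5 motifs, which says only that these letters are not in these windows.

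Of the markers that the gate required, Kit, Ly6a and Slamf1 were detected in all 5 libraries, and the groups overlapped for each of them. The gene Kit (GRCm38 chromosome 5, 75574916 to 75656722, plus strand) stood at 20.4, 107 and 102 TPM in wild-type against 145 and 81.4 TPM in RankCre-ki HSCs. Wild-type replicate 1 was far below the other 4 libraries. The log2 fold change of RankCre-ki against wild-type, computed here and below by limma on log2(TPM + 1), was 0.83 ± 0.81 (SE; adjusted p = 0.946). Within the name series it was 1.95 in series 1, which holds the low wild-type library, and 0.47 in series 2. Without wild-type replicate 1 it was 0.057.

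Ly6a (chromosome 15, 74994877 to 74998031, minus strand) was at 72.1, 159 and 185 TPM in wild-type against 155 and 47.7 TPM in RankCre-ki HSCs. The lowest library of each group was the one of series 1, and the groups overlapped (log2 fold change -0.57 ± 0.68, SE, adjusted p = 0.968). It was the only marker with a lower mean log level in RankCre-ki libraries, and it was lower within both series, with changes of -0.59 and -0.15. Without RankCre-ki replicate 2 the sign turned, to 0.27.

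Slamf1 (chromosome 1, 171767127 to 171801184, plus strand) was at 41.8, 16.5 and 20.9 TPM in wild-type against 31.4 and 27.7 TPM in RankCre-ki HSCs. Both RankCre-ki values lay inside the wild-type range (log2 fold change 0.26 ± 0.75, SE, adjusted p = 0.992). The change was -0.58 within series 1 and 0.73 within series 2. The overall value was below 0 under other scalings (-0.17 with median ratios and -0.057 with quantile normalization) and without wild-type replicate 2 (-0.0071).

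Cd48 is the negative marker. Each of the 3 wild-type libraries listed it at 0, whereas RankCre-ki replicates 1 and 2 had 4.92 and 5.62 TPM. The groups did not overlap, and both name series showed the same direction (limma p of 0.00613, adjusted p = 0.521). The same pattern, 0 in every wild-type library with 1 TPM or more in each RankCre-ki library, was seen in 239 of the 13981 tested genes (1.71%). Cd48 passed the filter on low values only through the RankCre-ki libraries, and it could not be tested when either of them was left out. CD48 is a lipid-anchored ligand of CD244 and CD2, and Cd244a and Cd2 were both listed at 0 in every library. The gene lies at chromosome 1, 171682009 to 171705258, on the plus strand, and its span overlaps that of the unconfirmed gene Gm37010 on the same strand. Whether their exons overlap was not examined. Gm37010 was at 4.74, 0.936 and 0.697 TPM in wild-type against 0.704 and 7.61 TPM in RankCre-ki HSCs. Both genes were highest in RankCre-ki replicate 2, while RankCre-ki replicate 1 had Cd48 at 4.92 TPM with Gm37010 at 0.704 TPM. The part of Gm37010 in the values of Cd48 was not tested.

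The level of Cd48 was low beside the positive markers of the same libraries. In RankCre-ki replicates 1 and 2 it was 15.6% and 20.3% of Slamf1, 3.38% and 6.91% of Kit, and 3.17% and 11.8% of Ly6a. Of the genes tested, 34.0% and 35.3% had a lower TPM than Cd48 in these libraries. In bulk RNA, few cells with much of a transcript and many cells with little of it cannot be told apart. The gap between the end of Cd48 and the start of Slamf1 is 61868 bases and holds 0 protein-coding genes, and all 9 SLAM family genes are on chromosome 1.

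**Figure D1:**
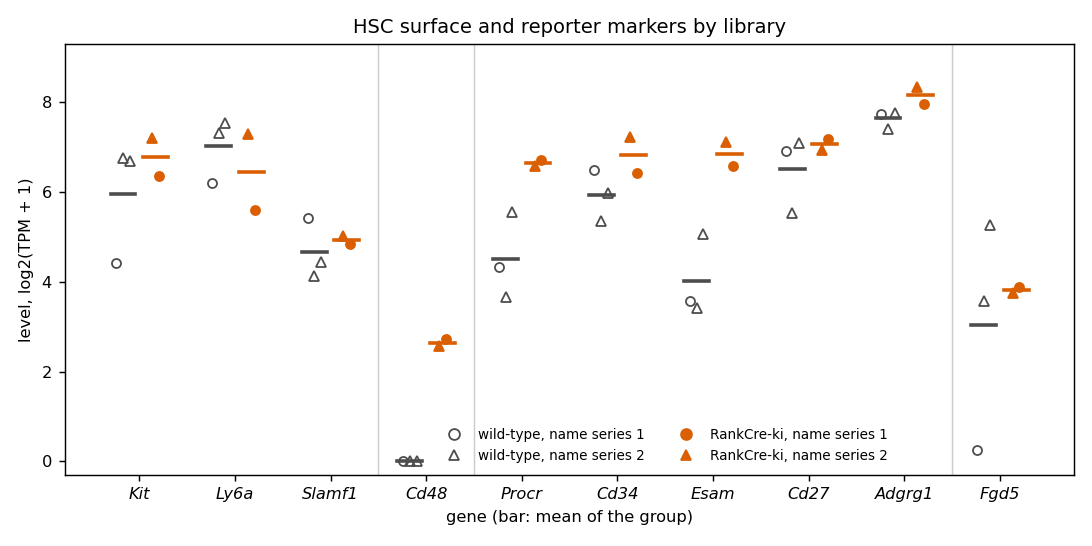
Level of each marker in each library as log2(TPM + 1), with wild-type in open and RankCre-ki in filled symbols, circles for name series 1 and triangles for name series 2, and a bar at the mean of each group. Cd48 sits at 0 in every wild-type library while RankCre-ki replicates 1 and 2 have 4.92 and 5.62 TPM, Procr and Esam are higher in both RankCre-ki than in all wild-type libraries, and Fgd5 has the widest wild-type spread.

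Procr and Esam, surface markers that the gate did not use, were the other members with an unadjusted p under 0.05. Procr encodes the endothelial protein C receptor (EPCR), which binds protein C and is used to enrich HSCs. It was at 19.1, 11.7 and 46.3 TPM in wild-type against 94.9 and 103 TPM in RankCre-ki HSCs. Every RankCre-ki value was above every wild-type value, and the wild-type libraries spread 3.96-fold while the RankCre-ki pair differed 1.09-fold. The means of 25.7 ± 18.2 (SD, n = 3) and 99.1 ± 5.91 TPM (SD, n = 2) stood in a ratio of 3.86, and the log2 fold change was 2.12 ± 0.74 (SE; 95% interval 0.42 to 3.83; limma p of 0.0208; adjusted p = 0.546). It was 2.38 within series 1 and 1.97 within series 2. The gene lies at chromosome 2, 155751117 to 155755471, on the plus strand.

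Esam encodes an adhesion protein of the immunoglobulin superfamily that endothelial cells, platelets and HSCs share. It was at 10.9, 9.73 and 32.4 TPM in wild-type against 137 and 94.0 TPM in RankCre-ki HSCs. The lowest RankCre-ki library was above the highest wild-type library. The ratio of the means, 17.7 ± 12.8 (SD, n = 3) and 115 ± 30.1 TPM (SD, n = 2), was 6.52, and the log2 fold change was 2.82 ± 0.76 (SE; 95% interval 1.06 to 4.57; limma p of 0.00602; adjusted p = 0.521). It was 2.99 within series 1 and 2.86 within series 2. By p, Esam ranked 89 among the 13981 genes. The gene lies at chromosome 9, 37528078 to 37538319, on the plus strand.

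Both results rest on 2 RankCre-ki libraries, and for a single gene an exact permutation test of 3 against 2 libraries cannot give a two-sided p below 0.2. Without RankCre-ki replicate 2, whose sex label its Y-linked level goes against, the log2 fold change of Esam was 3.08 (limma p of 0.0236) and that of Procr 2.06 (p of 0.101). Without RankCre-ki replicate 1 they were 2.55 (limma p of 0.0643) and 2.19 (p of 0.0721). In all other alternatives that were run both kept an unadjusted p under 0.05, and neither reached the threshold.

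Adgrg1, which encodes the adhesion receptor GPR56, was the most abundant of the markers in both groups. It was at 212, 170 and 217 TPM in wild-type against 324 and 249.7 TPM in RankCre-ki HSCs. The groups did not overlap, but the log2 fold change of 0.52 ± 0.41 (SE; adjusted p = 0.921) equalled the median of all tested genes, 0.52. With median-ratio scaling it was 0.07. Its wild-type libraries spread 1.28-fold, less than those of any other member detected in all libraries. The gene lies at chromosome 8, 94974751 to 95014217, on the plus strand.

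Cd34 and Cd27 overlapped between the groups. Cd34, a sialomucin that is carried by multipotent progenitors and by HSCs of young mice, was at 89.2, 40.2 and 61.8 TPM in wild-type against 149 and 84.6 TPM in RankCre-ki HSCs (log2 fold change 0.88 ± 0.59, SE, adjusted p = 0.892). The change was -0.074 within series 1 and 1.56 within series 2. Its gene (chromosome 1, 194938819 to 194961279, plus strand) overlaps the antisense gene Gm16897, and the use of strand in making the TPM is not stated. Cd27, the receptor of the tumour necrosis factor family for CD70, was at 120, 45.1 and 135 TPM in wild-type against 122 and 145 TPM in RankCre-ki HSCs (0.55 ± 0.60, SE, adjusted p = 0.954). Wild-type replicate 2 stood below the other 4 libraries, and without it the change was 0.062. Cd27 (chromosome 6, 125232622 to 125237010, minus strand) overlaps Vamp1 on the opposite strand, and its ligand gene Cd70 was listed at 0 in every library.

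Fgd5 encodes a guanine nucleotide exchange factor for Cdc42, and its locus is used for HSC reporter mice. It was at 0.184, 10.9 and 37.5 TPM in wild-type against 12.4 and 13.8 TPM in RankCre-ki HSCs. The wild-type values spread 203-fold, the widest of the members detected in all libraries, and both RankCre-ki values lay inside their range. The wild-type mean, 16.2 ± 19.2 TPM (SD, n = 3), was above that of the RankCre-ki pair, 13.1 ± 1.03 TPM (SD, n = 2), whereas the log2 fold change was positive at 0.79 ± 1.57 (SE), less than its error, so the direction depends on the scale. Without wild-type replicate 1 it was -0.60. The gene lies at chromosome 6, 91978878 to 92076004, on the plus strand.

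**Figure D2:**
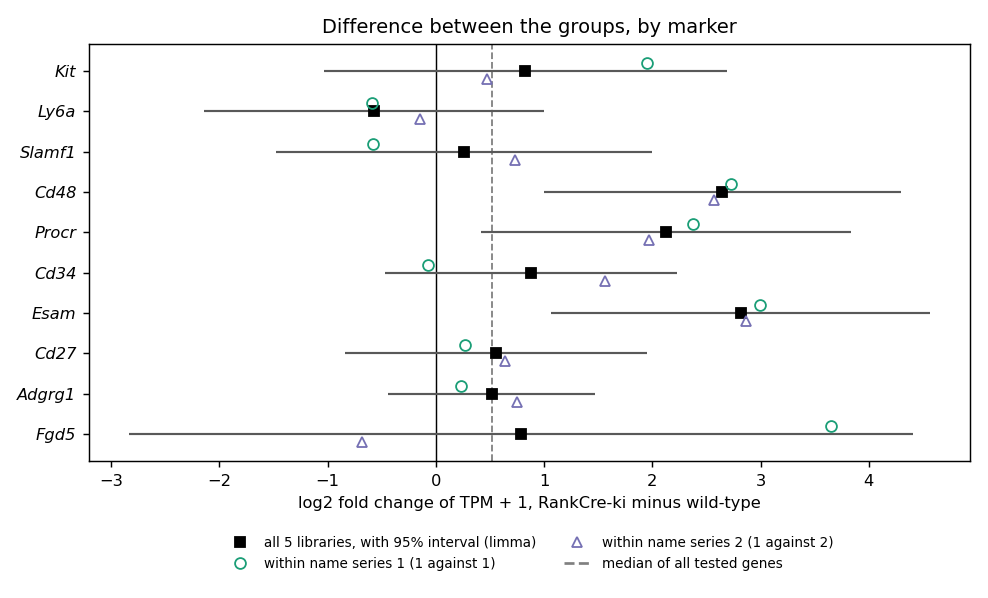
Log2 fold change of TPM + 1 (RankCre-ki minus wild-type) for each marker, with the limma estimate over 5 libraries and its 95% interval (squares), the change within name series 1 (circles) and within name series 2 (triangles), and the median of all tested genes, 0.52 (dashed). The intervals of Procr and Esam lie above 0. That of Cd48 does too, but its direction was fixed by the filter, and its place depends on the pseudocount since its wild-type values are 0. Slamf1, Cd34 and Fgd5 have opposite signs in the 2 series.

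Counted over the set, all 10 markers passed the filter of 1 TPM in at least 2 libraries, and none reached the threshold of an adjusted p of at most 0.1 with an absolute log2 fold change above 2. By limma none of the 13981 tested genes did either (0.00%). At an unadjusted p under 0.05, 3 of the 10 markers were higher in RankCre-ki libraries (Cd48, Procr and Esam) and 0 were lower, against 6.34% and 0.529% of all tested genes (6.87% in either direction). Of the 7129 genes whose mean reached 10 TPM, as 9 of the markers did, 3.38% were higher at that p. Since Cd48 passed the filter only through the libraries in which it is high, its direction was fixed by the filter. It lends no support to these counts or to those that follow. Of the other 9 markers 2 were higher at that p. Both RankCre-ki libraries exceeded every wild-type library for 4 markers (Cd48, Procr, Esam and Adgrg1), against 18.8% of all tested genes and 17.8% of those with the higher mean, and lay below them for 0, against 3.71%. The log2 fold change was above 0 for 9 markers, where it was above 0 for 72.3% of all genes. The median of the markers was 0.81 and that of all genes 0.52.

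By the sign of the change within each name series, 6 markers were higher in both (Kit, Cd48, Procr, Esam, Cd27 and Adgrg1), against 44.5% of all tested genes, and 1 was lower in both (Ly6a), against 12.9%. Cd48 was at 0 in every wild-type library and passed the filter only through the RankCre-ki libraries. It could therefore only be higher in both series and lends no support to this count. For 3 markers (Slamf1, Cd34 and Fgd5) the signs were opposite, against 39.1% of all genes. The RankCre-ki library of series 2 lay between its wild-type libraries for Cd27, with changes of 0.27 in series 1 and 0.64 in series 2, and for Fgd5, with 3.65 and -0.68.

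The levels can be ordered because TPM is corrected for length. In wild-type libraries the order of mean TPM was Adgrg1, Ly6a, Cd27, Kit, Cd34, Slamf1, Procr, Esam, Fgd5 and Cd48. In that order only the steps from Adgrg1 to Ly6a and from Cd34 to Slamf1 were larger than the larger SD of the 2 neighbours. In RankCre-ki libraries the order was Adgrg1, Cd27, Cd34, Esam, Kit, Ly6a, Procr, Slamf1, Fgd5 and Cd48. Adgrg1 stood apart from Cd27, no neighbours from Cd27 to Procr differed by more than the larger SD, and Slamf1, Fgd5 and Cd48 were each below their neighbour by more than the larger SD. Esam was thus at place 8 of 10 in wild-type and at place 4 of 10 in RankCre-ki libraries.

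Ratios between markers in the same library do not depend on how the library was scaled. Ly6a was 354%, 148% and 182% of Kit in the wild-type and 107% and 58.5% in the RankCre-ki libraries, with no overlap. Esam was 53.7%, 9.05% and 31.9% of Kit in the wild-type and 94.0% and 116% in the RankCre-ki libraries, again with no overlap. Procr was 45.6%, 70.9% and 221% of Slamf1 in the wild-type and 302% and 373% in the RankCre-ki libraries, and so lay higher throughout. Cd34 was 213%, 244% and 296% of Slamf1 in the wild-type and 474% and 306% in the RankCre-ki libraries, where the lowest value was close to the highest wild-type value. Procr as a share of Kit overlapped between the groups, at 93.7%, 10.9% and 45.5% against 65.2% and 127%. Slamf1 as a share of Kit overlapped as well, at 205%, 15.3% and 20.5% against 21.6% and 34.0%, with wild-type replicate 1, the library low in Kit, far above the rest. The markers were chosen with these values known, and no p is given for a ratio.

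**Figure D3:**
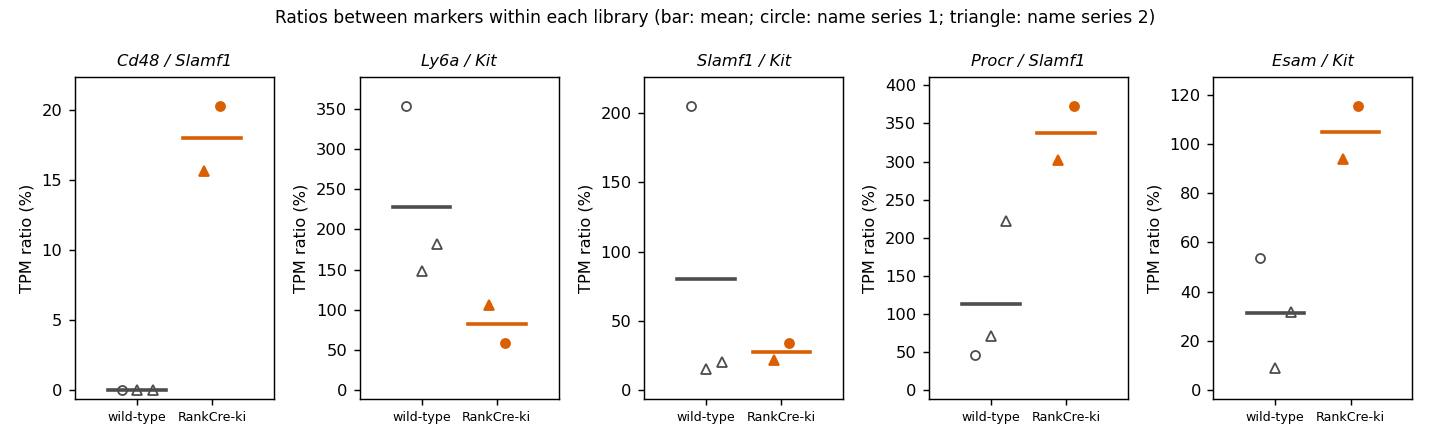
TPM ratios (%) of marker pairs within each library, wild-type in open and RankCre-ki in filled symbols, circles for name series 1, triangles for name series 2, bars at group means. Cd48 over Slamf1 is 0 in the wild-type group and reaches 15.6% and 20.3% in RankCre-ki HSCs, Ly6a over Kit is lower and Procr over Slamf1 and Esam over Kit are higher in both RankCre-ki libraries, and Slamf1 over Kit overlaps.

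The other genes of the families of the gate markers gave no unadjusted p under 0.05. Of 7 other SLAM family genes 3 were tested. Cd84, the most abundant, was at 50.2, 47.3 and 47.7 TPM in wild-type against 81.7 and 29.6 TPM in RankCre-ki HSCs, on both sides of the wild-type values. Of 7 other Ly6 family genes only Ly6e was tested, at 157, 983 and 1117 TPM against 1323 and 754 TPM, and wild-type replicate 1 was lowest, as it was for Kit. Ly6c1, Ly6d and Ly6g were listed at 0 in every library.

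Of 19 other HSC surface genes, 17 were tested, 3 had an unadjusted p under 0.05 and were higher in RankCre-ki libraries and 0 were lower, against 6.34% and 0.529% of all tested genes. The median change of the list was 0.41, and that of all genes 0.52. Selp, the adhesion molecule P-selectin, was at 0.0333, 0 and 0 TPM in wild-type against 1.84 and 4.93 TPM in RankCre-ki HSCs (limma p of 0.0147, adjusted p = 0.521). Like Cd48 it passed the filter only through the RankCre-ki libraries, so its direction was fixed and it lends no support to this count. Eng, the gene of the TGF-beta coreceptor endoglin, named after its values were seen, was at 9.52, 13.8 and 37.2 TPM against 108 and 80.7 TPM (2.38 ± 0.77, SE, limma p of 0.0151, adjusted p = 0.523). The tetraspanin genes Cd81 and Cd63, the most abundant of the list, had negative changes of -0.62 ± 0.52 and -0.30 ± 0.39 (SE), with adjusted p of 0.931 and 0.982.

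Of 13 genes used for other HSC reporters or tracing, 12 were tested and 1 had an unadjusted p under 0.05, against 6.87% of all tested genes. It was Gata2, a zinc finger transcription factor of stem and progenitor cells, at 16.4, 8.93 and 36.4 TPM in wild-type against 106 and 102 TPM in RankCre-ki HSCs (2.50 ± 0.75, SE, limma p of 0.0108, adjusted p = 0.521). Its wild-type libraries had the same order as those of Procr, with replicate 3 highest and replicate 2 lowest. Mecom, a transcription factor gene needed for HSC maintenance, was at 19.4, 47.3 and 131 TPM against 95.5 and 17.3 TPM and overlapped. Of 10 surface genes of progenitors 6 were tested and 0 had an unadjusted p under 0.05, and Flt3, the receptor that marks lymphoid-primed progenitors, was at 1.13, 3.61 and 8.54 TPM against 10.4 and 10.4 TPM.

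**Figure D4:**
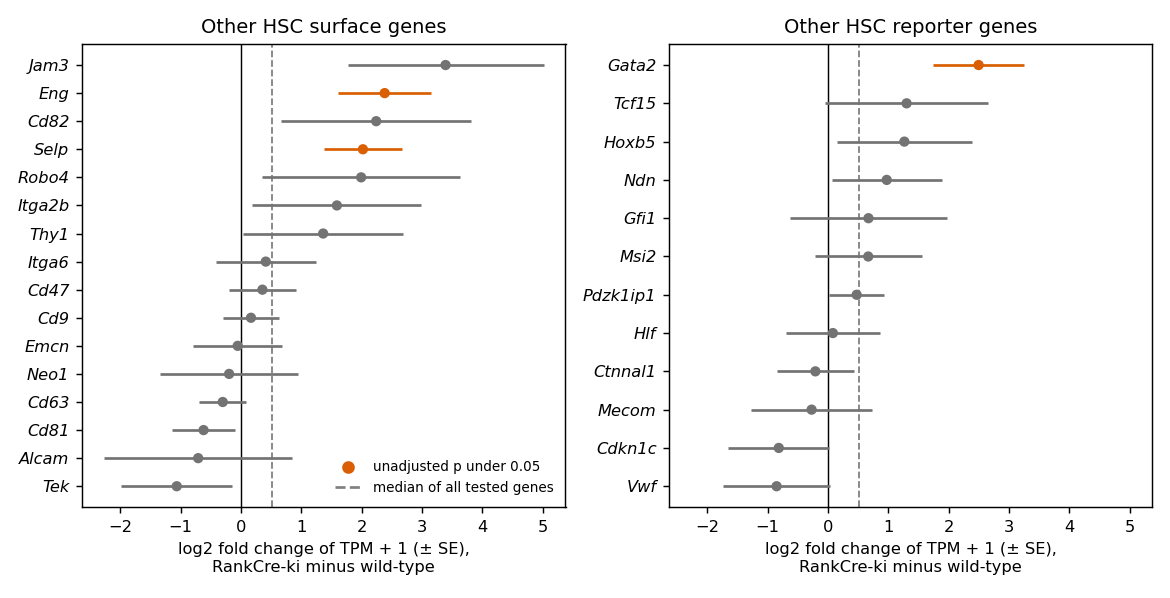
Log2 fold changes of TPM + 1 (RankCre-ki minus wild-type) of tested genes among other HSC surface genes and other HSC reporter genes, with SE bars, orange where the unadjusted p is under 0.05 and a dashed line at the median of all tested genes. Selp and Eng in the first list and Gata2 in the second have an unadjusted p under 0.05, and the most abundant of the first list, Cd81 and Cd63, lie below 0. The direction of Selp was fixed by the filter.

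Among 20 ligands and partners of the markers, 13 were tested, 1 was higher in RankCre-ki libraries at an unadjusted p under 0.05 and 0 were lower, against 6.34% and 0.529% of all tested genes. It was Gna12, a G protein alpha subunit through which adhesion receptors signal, at 0.0648, 0.301 and 0 TPM against 1.97 and 7.42 TPM (limma p of 0.0246, adjusted p = 0.574). Gna12 also passed the filter only through the RankCre-ki libraries, so its direction was fixed and it lends no support to this count. Cdc42, the GTPase on which Fgd5 acts, was at 107, 404 and 353 TPM against 477 and 350 TPM and overlapped. Cd70, Proc and Col3a1, which encode ligands of CD27, EPCR and GPR56, were listed at 0 in every library.

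Markers of cells that the gate leaves out were examined beside these results. Summed over 10 lineage antigens, the level was 0.921 to 3.43 TPM in wild-type and 5.65 and 32.0 TPM in RankCre-ki libraries, with Ly6g at 0 in every library. Klrb1c, a natural killer cell antigen, was at 0.0516, 0 and 0 TPM against 4.40 and 12.8 TPM (limma p of 0.00775, adjusted p = 0.521), and it too passed the filter only through the latter. Summed over 9 erythroid genes the level was 147 to 278 TPM against 322 and 1573 TPM, the higher value in RankCre-ki replicate 2. S100a8, a granulocyte gene, was at 0.0677, 0 and 0 TPM against 8.31 and 12.9 TPM, and it likewise passed the filter only through the RankCre-ki libraries. The granulocyte list overlapped in sum, at 176 to 428 against 316 and 416 TPM, with Elane, Ctsg and Ly6g at 0. Its most abundant tested gene was Prtn3, at a mean of 301 TPM. Of the endothelial genes, which bear on Procr, Esam and Eng, Plvap was at 0 in every library and Cdh5 reached at most 0.0572 TPM, and the list summed to 114 to 184 TPM against 149 and 240 TPM, mostly through Egfl7. Tie1, an endothelial receptor gene of the same list, was at 1.37, 3.64 and 11.8 TPM in wild-type against 22.5 and 26.1 TPM in RankCre-ki HSCs, without overlap, as for Procr, Esam and Eng, and its part in those differences was not tested. The macrophage genes summed to 234 to 322 TPM against 161 and 351 TPM, with Adgre1, C1qc and Vsig4 at 0. Lyz2 was the most abundant tested gene of this list, at a mean of 232 TPM, with a change of -0.47. Of the 7 tested macrophage genes, 5 had a change above 0 and 2 below, where 72.3% of all genes were above. Only Csf1r, with the values given above, did not overlap (2.87 ± 1.21, SE, limma p of 0.0451, adjusted p = 0.706). The megakaryocyte list, at 50.3 to 198 against 138 and 165 TPM, and the lymphoid list, at 39.0 to 204 against 59.7 and 95.6 TPM, overlapped. The stromal list was at 4.11 to 14.0 against 18.9 and 23.6 TPM, without overlap, and with Sp7 at 0. Of its tested genes, Pdgfrb did not overlap (1.78 ± 1.02, SE, adjusted p = 0.881), whereas Runx2 did. The part of these transcripts in the difference of Cd48 was not tested.

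The genes most alike Procr over the 5 libraries, among 7128 other genes whose mean reached 10 TPM, were Ccdc51 (Pearson r = 0.9995), Fads2 (0.998) and Lamtor4 (0.998), and 19 genes had an r over 0.99. For Cd48, with no minimum level, they were Slc35e3, Gm23201 and BC035044, each at 0 in all wild-type libraries, and 171 of 13980 genes had an r over 0.99. Among the members the highest correlation was that of Procr with Esam (0.974) and the lowest that of Slamf1 with Fgd5 (-0.709). These are descriptions over 5 libraries that share 1 group difference and the number of genes detected, and no p is given.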

How the data were processed

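Bone marrow HSCs were profiled by full-length poly(A) RNA sequencing, as 3 wild-type and 2 RankCre-ki libraries. The authors deposited TPM per gene. The software behind the TPM is not given in the sources used here, and for their own test the authors aligned to mm10 with gsnap and counted with featureCounts 2.0.1. TPM keeps no depth, so the depth is unknown, no counting interval can be given, and only the spread between libraries shows the precision. Each gene's TPM falls when others in its library rise. The 92 spike-in rows, all at 0, were removed. Groups came from the sample titles. Columns not used numbered 0.

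The 13981 genes that reached 1 TPM in 2 or more libraries entered limma 3.58.1 (R 4.3.3; lmFit, eBayes with trend, two-sided, no covariate) on log2(TPM + 1), which understates changes of low genes, with Benjamini-Hochberg adjustment over all of them. The threshold was an adjusted p of at most 0.1 with an absolute log2 fold change above 2. A p not called adjusted is unadjusted. Fits were tested on simulated data. Positions are from GENCODE M21 (GRCm38, which is mm10) and promoters from RefSeq (GRCm38.p6).

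The members and lists were chosen with earlier results of these data known. Named were all members, in each further list the 2 most abundant genes and the 2 with the smallest p at most, any gene of the lists of cells outside the gate, and the 3 genes most alike Procr and Cd48. Alternatives were another pseudocount, filter, threshold and scaling, a block for the replicate number or the name series, each library left out, and the set without Cd48, which was added after seeing the data. Replicate numbers do not pair the libraries. Some genes of the lists are counted but not reported here by name.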

Additional observations from a re-analysis of the deposited data

Results flagged for a closer look

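The change of Slamf1 was -0.58 on the log2(TPM + 1) scale within name series 1 and 0.73 within name series 2, and both wild-type libraries of series 2 were below its RankCre-ki library. The change of Cd34 was -0.074 within series 1 and 1.56 within series 2, again with both wild-type libraries of series 2 below. Each was singled out because every library of series 1 and every library of series 2 pointed the opposite way. The difference between the series was not tested, since series 1 has 1 library a group.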

How the results depend on the processing

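None of the 10 members reached the threshold in any of the 15 alternatives that were run. Over all tested genes the number past the threshold was 0 in limma, 1 with the replicate block, and 0 to 17 when 1 library was left out (17 without RankCre-ki replicate 1 and 8 without RankCre-ki replicate 2, in fits where the lone library is assumed to vary like the wild-type libraries). The members with an unadjusted p under 0.05 numbered 0 to 3 when 1 library was left out (0 without RankCre-ki replicate 1 and 1, Esam, without RankCre-ki replicate 2), and 2, Procr and Esam, with the replicate block. The replicate numbers share only a number: deviations from the group means correlated at -0.380 for number 1 and -0.195 for number 2. Cd48 could not be tested at a minimum of 5 TPM or without either RankCre-ki library.

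The median change of the members minus that of all genes, 0.29, was -0.0034 with a pseudocount of 0.1, 0.57 without a filter, 0.76 with quantile normalization, and -0.13 to 0.44 when 1 library was left out (-0.13 without RankCre-ki replicate 1, 0.0037 without RankCre-ki replicate 2). Over the members other than Cd48, a choice made after seeing the data, it was 0.27, and 2 of them had an unadjusted p under 0.05. The scaling moved the median of all genes, from 0.52 to 0.21 with median ratios and -0.09 with quantile normalization. The sign turned for Slamf1 (-0.17 with median ratios, -0.057 with quantile normalization, -0.0071 without wild-type replicate 2), Fgd5 (-0.60 without wild-type replicate 1) and Ly6a (0.27 without RankCre-ki replicate 2). With 1 library left out their ranges were -0.0071 to 0.64 for Slamf1, -0.60 to 1.91 for Fgd5 and -1.41 to 0.27 for Ly6a. The difference between the group means of Slamf1 as a percent of Kit, -52.6, was 9.86 without wild-type replicate 1 and 3.68 within series 2, with a range of -85.1 to 9.86 when 1 library was left out. The cause was not tested. Esam (2.39 to 3.34) and Procr (1.69 to 2.65) stayed positive in every alternative in which they were fitted.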
